A study of Mus musculus with 16 samples.

Results

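The 9 genes of the Nlrp family described here are Nlrp4a, Nlrp4b, Nlrp4c, Nlrp4e, Nlrp4g, Nlrp9a, Nlrp9b, Nlrp9c and Nlrp14. They were taken by name from an FPKM table of 28618 entries for 27987 gene names. The rule itself used no measured value, but the members were chosen with earlier results of these data known. The 9 names held 10 entries, because Nlrp4g was listed under 2 entries, and all 10 were tested in every comparison. RNA was sequenced from fully grown germinal vesicle (GV) oocytes and from metaphase II (MII) eggs of wildtype (WT) mice and of Zp3-Cre; Psma7 flox/flox mice (Psma7 cKO, here cKO), with 4 libraries in each of the 4 groups. Psma7 encodes the α4 subunit of the 20S proteasome core, and the Zp3 promoter drives CRE in growing oocytes, so the follicular cells keep the gene. Females were 3 to 4 weeks old and received 5 IU PMSG, a gonadotropin that stimulates follicle growth. GV oocytes were taken 44 h later, or hCG was given then and eggs were collected from oviducts 14 to 16 h after it, with cumulus cells removed by hyaluronidase. Neither the labels nor the methods say whether the WT females carried the floxed allele or the Cre transgene. The paper reports that some ovulated cKO oocytes had not completed the first meiotic division or were still at the GV stage. Whether such cells were left out of the cKO egg libraries is not stated. If they were not, genotype and meiotic stage cannot be told apart in any comparison with cKO eggs. The labels give 5 oocytes for each library.

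NLRP proteins are cytoplasmic proteins with a pyrin domain, a nucleotide-binding NACHT domain and leucine-rich repeats. Some relatives build inflammasomes, the complexes that activate caspase-1 in immune cells, whereas a rodent-expanded group of Nlrp genes is transcribed mainly in oocytes. NLRP5 and its partners form the subcortical maternal complex, a lattice under the egg surface that embryos need for their first divisions. NLRP14 is a maternal-effect protein that has been linked to the stability of UHRF1, a factor for DNA methylation, and NLRP9B is known in the intestine as a partner of the helicase DHX9 in sensing viral RNA. Transcription is low in fully grown GV oocytes, and many stored transcripts are degraded or have their poly(A) tails shortened or lengthened as the oocyte matures.

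Of the 9 genes, 8 lie on chromosome 7 in GENCODE release M21 of build GRCm38. From the smallest coordinate they are Nlrp4c (ENSMUSG00000034690.13, 6045161 to 6105150), Nlrp4b (ENSMUSG00000034087.14, 10687789 to 10730168), Nlrp9b (ENSMUSG00000060508.16, 19991465 to 20073306), Nlrp4e (ENSMUSG00000045693.8, 23301192 to 23362277), Nlrp9c (ENSMUSG00000040614.14, 26322473 to 26403700), Nlrp4a (ENSMUSG00000040601.13, 26435113 to 26476142), Nlrp9a (ENSMUSG00000054102.15, 26535023 to 26575615) and Nlrp14 (ENSMUSG00000016626.10, 107166990 to 107198102). Nlrp9c is on the minus strand and the others are on the plus strand. Nlrp9c, Nlrp4a and Nlrp9a are next to each other among the members, with 31.4 kb between the first pair and 58.9 kb between the second. Nlrp4g (ENSMUSG00000079741.5) lies on chromosome 9 from 124348872 to 124356970, where GENCODE calls it a transcribed unprocessed pseudogene and RefSeq a protein-coding gene.

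The coding sequences fall into a Nlrp4 group, a Nlrp9 group and Nlrp14. Nlrp4c and Nlrp4e share 93.9% of 2937 aligned bases, and Nlrp9a and Nlrp9c share 87.7% of 3008. Nlrp9b shares 84.2% with Nlrp9a and 82.8% with Nlrp9c, and Nlrp14 shares between 59.8% and 63.1% with the Nlrp4 and Nlrp9 genes. Reads of close copies can be divided wrongly between them. Windows of 50 bases that also occur in another gene made up 36.9% of the Nlrp4e transcript, 11.9% of Nlrp4c and 9.44% of Nlrp4g, between 3.04% and 6.54% of Nlrp4a, Nlrp9a, Nlrp9b and Nlrp9c, and 0% of Nlrp4b and Nlrp14. The main copy of Nlrp4e, Gm16443, was listed at no more than 0.115 FPKM in any library. Nlrp4e values are therefore the least certain in this respect.

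The Nlrp9 transcripts moved in different directions between the stages although their sequences are close, and the ends of their annotated transcripts are shown for that reason. The last 30 bases are read 5′ to 3′ on the transcript strand of GRCm38, with the AATAAA polyadenylation signal in capitals.
Nlrp9a: cattcAATAAAcactaagcatgtgtgaaaa
Nlrp9b: catttAATAAAcactaagcgtgtttgaaaa
Nlrp9c: cattaAATAAAcactaagcatgtttgaaaa
Nlrp9a and Nlrp9b differ at 3 of these 30 bases, and Nlrp9c differs from each of them at 2. The annotated 3′ untranslated regions are short, at 195 nt in Nlrp9a, 201 nt in Nlrp9b and 196 nt in Nlrp9c, against a median of 824 nt over 20468 genes. TTTTAT, a form of the cytoplasmic polyadenylation element, occurs 1 time in the 3′ untranslated region of Nlrp9a and of Nlrp9c and 0 times in that of Nlrp9b. It was searched on the transcript strand, and 49.1% of all 3′ untranslated regions hold it. In Nlrp9a and Nlrp9c it starts 173 nt from the transcript end, where AATAAA starts 25 nt from it. Among the Nlrp4 genes TTTTAT occurs 3 times in Nlrp4a, 1 time in Nlrp4c and 0 times in Nlrp4b and Nlrp4e. TTTTAAT occurs 2 times in Nlrp4a and 0 times in Nlrp4b, Nlrp4c and Nlrp4e, and 26.5% of all 3′ untranslated regions hold it. From GV oocytes to eggs in WT, the log2 fold change was 0.64 for Nlrp4a and 0.21 for Nlrp4b. It was -0.42 for Nlrp4c and 0.06 for Nlrp4e. A part of these motifs in the changes was not tested. Nlrp14 has a 3′ untranslated region of 184 nt with neither TTTTAT nor AATAAA, and AATAAA occurs in 78.4% of all.

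RefSeq promoter sequences, covering 250 bases before to 50 after a start site (GRCm38.p6), were found for 7 of the 9 genes, and those of the Nlrp9 genes are given to set beside their values. They are read 5′ to 3′ on the strand of the gene, and CCAAT on either strand is in capitals. The Nlrp9a window is chr7:26534773-26535072 (plus strand), the Nlrp9c window is chr7:26403651-26403950 (minus strand) and the Nlrp9b window is chr7:20007773-20008072 (plus strand).
Nlrp9a: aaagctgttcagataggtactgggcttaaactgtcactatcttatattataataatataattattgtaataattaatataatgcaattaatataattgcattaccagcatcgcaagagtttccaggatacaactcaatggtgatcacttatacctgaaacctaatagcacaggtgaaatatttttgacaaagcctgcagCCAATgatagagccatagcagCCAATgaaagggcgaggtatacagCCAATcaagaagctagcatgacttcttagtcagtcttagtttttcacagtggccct
Nlrp9c: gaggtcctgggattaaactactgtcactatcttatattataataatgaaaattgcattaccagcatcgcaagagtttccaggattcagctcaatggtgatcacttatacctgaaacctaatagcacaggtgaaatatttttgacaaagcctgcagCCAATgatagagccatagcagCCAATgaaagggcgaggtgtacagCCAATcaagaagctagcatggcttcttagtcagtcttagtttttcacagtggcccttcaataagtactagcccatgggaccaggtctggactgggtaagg
Nlrp9b: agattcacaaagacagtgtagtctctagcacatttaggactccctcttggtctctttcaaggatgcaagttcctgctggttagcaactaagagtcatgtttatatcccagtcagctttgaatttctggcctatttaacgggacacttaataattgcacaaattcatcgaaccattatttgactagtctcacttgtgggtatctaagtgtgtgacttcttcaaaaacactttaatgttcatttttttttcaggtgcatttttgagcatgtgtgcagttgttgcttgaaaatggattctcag
The Nlrp9a and Nlrp9c windows align over 222 bases with 97.3% identity, and each holds CCAAT 3 times. At least 3 copies were found in 3.37% of 32851 promoter windows and at least 1 copy in 37.4%. Among the other members, the Nlrp4c window also holds 3 copies, each Nlrp4b window 2, the Nlrp4e window 1 and the Nlrp4a windows 0 and 1. A part of this motif in the values was not tested. The Nlrp9b window begins 16308 bases inside the GENCODE gene and holds 0 copies.

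The libraries were first checked against their labels. Psma7 FPKM was 165 ± 25.3 in WT and 14.6 ± 2.82 in cKO GV oocytes (mean ± SD, n = 4 each). In eggs it was 126 ± 32.1 in WT and 39.7 ± 20.2 in cKO, and the genotypes did not overlap at either stage. Psma7 was uneven among cKO eggs 1 to 4, at 13.6, 50.3, 35.0 and 59.9 FPKM. It was higher in cKO eggs than in cKO GV oocytes (log2 fold change 1.27, limma adjusted p = 0.0188), with values that overlapped. All 9 oocyte markers were above a mean of 1 FPKM in every group, with a summed level of 8307 to 14370 FPKM per library. Of the 10 cumulus and granulosa markers only Cyp19a1 had a mean of 1 FPKM or more (summed level of the list 7.72 to 15.3 FPKM, with Amh, Foxl2 and Tnfaip6 at or near 0), of the 4 theca and stroma markers only Dcn (0.809 to 9.23 FPKM), and of the 5 macrophage and leukocyte markers only Cd68 and, in WT eggs, Lyz2 (1.24 to 10.9 FPKM, Adgre1 and Ptprc at or near 0). Sequencing depth, estimated from the steps of the smallest values, was 10.5 to 15.7 M fragments per library. The cKO eggs were the most variable group by the lowest correlation between libraries on log2 FPKM. It was 0.965 in cKO eggs and 0.9745 to 0.9869 in the other groups. The summed FPKM of the 397 transcripts that fell more than 10-fold in WT, as a share of the GV mean of the same genotype, was 5.93 to 6.80% in WT eggs and 12.7, 8.80, 34.5 and 19.0% in cKO eggs 1 to 4. The 397 transcripts were chosen from these same WT libraries, so the low share in WT eggs was set by that choice. The shares therefore cannot serve as a comparison of the genotypes. Results in eggs are also given without replicate 3 of the cKO eggs, which had the highest share.

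All 10 entries were detected in every group, with group means from 10.0 FPKM for Nlrp4g entry 1 to 3557 FPKM for Nlrp14. The 10 entries together made up 1.31 ± 0.0806% of the summed FPKM in WT GV oocytes, 1.24 ± 0.0636% in cKO GV oocytes, 0.999 ± 0.0642% in WT eggs and 1.00 ± 0.0777% in cKO eggs (n = 4 each). Nlrp14 alone accounted for 66.9% of that sum in WT GV oocytes and 47.4% in WT eggs. FPKM divides fragments by transcript length and by library total, which puts genes on a common scale. A value is a share of a library and not an amount per cell. Priming with oligo-dT also means that a change in transcript number and a change in poly(A) tail cannot be told apart. Differences in level between genes can likewise depend on poly(A) tails and on how reads of close copies were divided. Orders of genes given below are therefore orders of FPKM only.

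**Figure D1:**
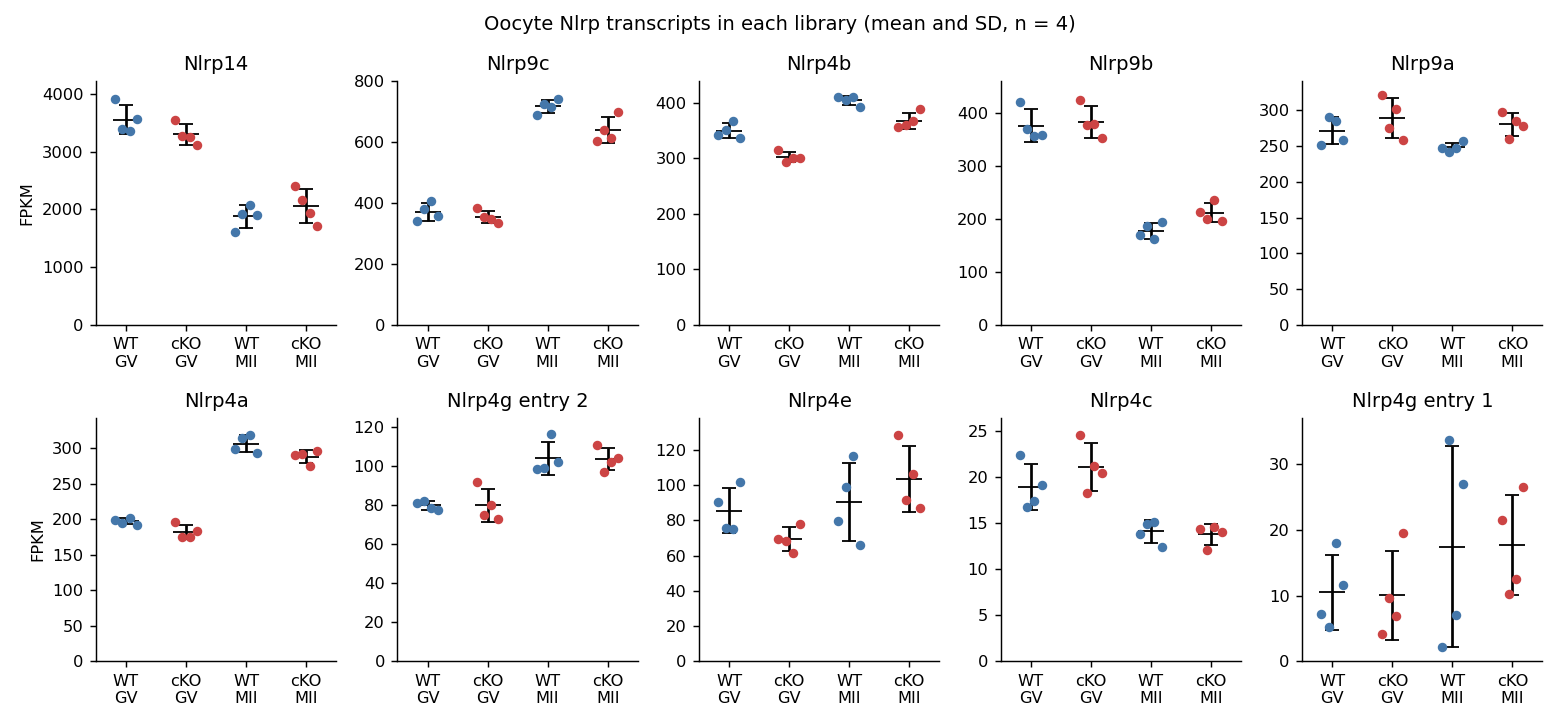
FPKM of the 10 entries in each of the 16 libraries (points; blue, WT; red, cKO), with the mean (bar) and SD (whiskers) of 4 libraries. Nlrp14 and Nlrp9b are lower in all eggs than in any GV library, Nlrp9c and Nlrp4a are higher, and Nlrp4g entry 1 scatters from 2.15 to 33.7 FPKM among WT eggs.

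Nlrp14 had the highest FPKM of the members and ranked 4th of all entries in GV oocytes of both genotypes. Its FPKM was 3910, 3386, 3360 and 3571 in WT and 3556, 3266, 3253 and 3123 in cKO GV oocytes, and 1609, 1920, 2075 and 1911 in WT and 2408, 2171, 1937 and 1716 in cKO eggs. Every egg library lay below every GV library, whereas the genotypes overlapped at both stages. Its rank was 27 in WT eggs and 25 in cKO eggs.

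The Nlrp9 transcripts stood close together in GV oocytes and apart in eggs. Nlrp9b FPKM was 420.7, 368.7, 356.4 and 357.7 in WT and 424.9, 376.7, 378.5 and 352.0 in cKO GV oocytes, and 169.2, 185.6, 161.1 and 193.1 in WT and 213.2, 199.1, 235.5 and 196.5 in cKO eggs. Nlrp9c FPKM was 340.1, 378.9, 405.6 and 357.6 in WT and 382.2, 355.2, 346.2 and 335.0 in cKO GV oocytes, and 688.3, 724.6, 714.8 and 742.1 in WT and 603.8, 640.9, 614.0 and 697.6 in cKO eggs. Nlrp9b thus had lower values in all eggs than in all GV oocytes, and Nlrp9c had higher ones. Nlrp9a FPKM was 251.2, 290.2, 285.1 and 259.2 in WT and 320.9, 275.8, 302.5 and 258.3 in cKO GV oocytes, and 247.7, 242.0, 248.0 and 256.8 in WT and 297.1, 259.8, 285.4 and 278.7 in cKO eggs. These values overlapped between stages in both genotypes.

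Of the 5 Nlrp4 genes among the members, Nlrp4b and Nlrp4a had the highest levels. Nlrp4b FPKM was 342.5, 351.3, 368.2 and 337.6 in WT and 315.0, 294.1, 301.2 and 300.2 in cKO GV oocytes, and 410.1, 405.1, 410.8 and 393.7 in WT and 356.3, 360.1, 367.9 and 388.9 in cKO eggs. All cKO values were below all WT values at both stages. Nlrp4a FPKM was 198.8, 194.8, 202.0 and 192.0 in WT and 195.7, 174.8, 175.2 and 182.8 in cKO GV oocytes, and 298.3, 314.1, 318.9 and 293.0 in WT and 289.9, 291.9, 274.1 and 296.1 in cKO eggs, so that stages were separate and genotypes overlapped. Nlrp4e ranged from 61.5 to 101.7 FPKM in GV oocytes and from 66.3 to 128.4 FPKM in eggs. Nlrp4c was low, with 16.7 to 24.5 FPKM in GV oocytes and 12.1 to 15.1 FPKM in eggs. The table does not say which transcripts its 2 Nlrp4g entries stand for. Entry 2 held 73.1 to 91.8 FPKM in GV oocytes and 96.8 to 116.5 FPKM in eggs. Entry 1 held 2.15 to 33.7 FPKM over the 16 libraries and rested on as few as 54 estimated fragments in a library, against at least 559 for every other entry. The estimate assumed the length of the GENCODE Nlrp4g transcript, 2030 nt, for both Nlrp4g entries.

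The order of mean levels changed between stages. In WT GV oocytes it was Nlrp14, Nlrp9b, Nlrp9c, Nlrp4b, Nlrp9a, Nlrp4a, Nlrp4e, Nlrp4g entry 2, Nlrp4c and Nlrp4g entry 1. The ranges of Nlrp9b, Nlrp9c and Nlrp4b overlapped there, as did those of Nlrp4e and Nlrp4g entry 2 and those of Nlrp4c and Nlrp4g entry 1. In WT eggs the order was Nlrp14, Nlrp9c, Nlrp4b, Nlrp4a, Nlrp9a, Nlrp9b, Nlrp4g entry 2, Nlrp4e, Nlrp4g entry 1 and Nlrp4c, where among neighbours Nlrp4g entry 2 overlapped with Nlrp4e and Nlrp4g entry 1 with Nlrp4c.

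The first comparison asked whether these transcripts differ between cKO and WT GV oocytes. The paper reports residual PSMA7 protein in cKO oocytes, so the depletion was partial. None of the 10 entries passed, with limma and Benjamini-Hochberg adjustment over all entries tested (0 of 10, where 0.118% of 11062 entries were called), and 2 of 10 had an unadjusted p under 0.05 (10.7% of all entries). The 13 calls over all entries became 5 or 6 without WT GV replicate 2 or 4 or without cKO GV replicate 1 or 4, and 10 to 19 without any other. The 2 Nlrp entries with an unadjusted p under 0.05 were Nlrp4b, with a log2 fold change of -0.21 ± 0.07 (SE; 95% interval -0.37 to -0.05, limma adjusted p = 0.328), and Nlrp4e, with -0.30 ± 0.12 (-0.56 to -0.04, adjusted p = 0.396). Nlrp4b was lower in 4 of 4 cKO libraries than in any WT library, and this separation was seen in 1 of 10 entries and in 6.67% of all. For Nlrp14 the log2 fold change was -0.11 (-0.31 to 0.10), for Nlrp9a 0.09 (-0.12 to 0.30), for Nlrp9b 0.03 (-0.17 to 0.23) and for Nlrp9c -0.06 (-0.25 to 0.13). The median over the 10 entries was -0.08, and that over all entries tested was 0.04. By the 3-fold rule on group means, which called 0.0245% of the 28618 entries, 0 of 10 were called, and the ratio of cKO to WT ran from 0.810 for Nlrp4e to 1.12 for Nlrp4c.

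The same question was asked in MII eggs, where limma called 761 of 9492 entries (8.02%). As said above, the cKO egg libraries may also hold cells from earlier meiotic stages. The number of calls past the adjusted threshold depended on single libraries: 3 entries were called without WT MII replicate 3, 12 without replicate 1, 39 without replicate 4 and 114 without replicate 2, and 197, 1160, 317 and 418 without cKO MII replicates 1 to 4 in turn. Entries with an unadjusted p under 0.05 moved less, from 2787 to between 2122 and 2871 in these fits. Again 0 of 10 entries passed, and 4 of 10 had an unadjusted p under 0.05 (29.4% of all entries). Nlrp9b had a log2 fold change of 0.25 ± 0.08 (SE; 95% interval 0.06 to 0.44, limma adjusted p = 0.0891) and Nlrp9a of 0.17 ± 0.06 (0.04 to 0.31, adjusted p = 0.0984), both with higher values in 4 of 4 cKO libraries than in any WT library. Nlrp9c had -0.17 ± 0.06 (-0.31 to -0.02, adjusted p = 0.124) with values that overlapped in range, and Nlrp4b -0.14 ± 0.05 (-0.26 to -0.01, adjusted p = 0.133). Values of 3 of 10 entries (Nlrp4b, Nlrp9a and Nlrp9b) did not overlap between genotypes, compared with 20.7% of all entries. The interval for Nlrp14 was -0.14 to 0.39 and that for Nlrp4e -0.21 to 0.62. Without cKO egg replicate 3 the log2 fold change was 0.20 for Nlrp9b (adjusted p = 0.186), 0.16 for Nlrp9a (0.199), -0.15 for Nlrp9c (0.258) and -0.14 for Nlrp4b (0.237). The 3-fold rule called 0 of 10 entries and 0.591% of all, and the ratio of means ran from 0.891 for Nlrp9c to 1.19 for Nlrp9b. The share of decaying transcripts left in each cKO egg library is given above, and its part in these values was not tested.

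**Figure D2:**
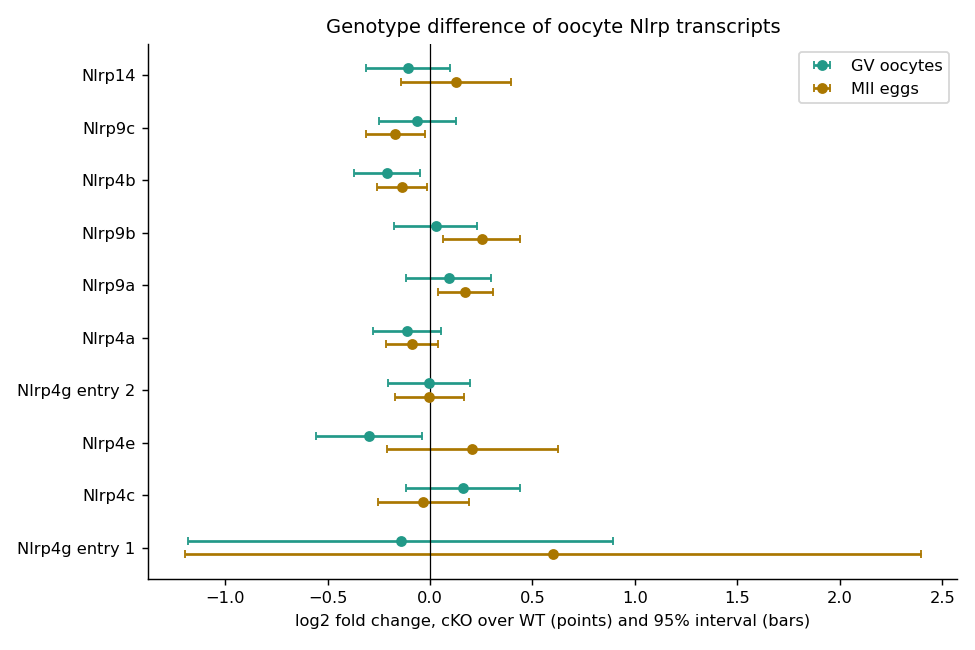
Log2 fold change of cKO over WT for each entry in GV oocytes (green) and MII eggs (brown), with 95% intervals from limma. Nlrp4b is below 0 at both stages with intervals that exclude 0, Nlrp9a and Nlrp9b are above 0 in eggs, and no entry passed the adjusted threshold.

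The second comparison was of maturation, from GV oocytes to MII eggs. In WT, 7 of 10 entries passed: 4 rose (26.1% of all entries rose) and 3 fell (52.4% of all entries fell). Nlrp9c rose by a log2 fold change of 0.96 ± 0.08 (limma adjusted p = 6.72e-07), Nlrp4a by 0.64 ± 0.07 (5.33e-06), Nlrp4g entry 2 by 0.38 ± 0.08 (0.00101) and Nlrp4b by 0.21 ± 0.07 (0.0119). Nlrp9b had -1.08 ± 0.09 (7.02e-07), Nlrp14 -0.92 ± 0.10 (6.48e-06) and Nlrp4c -0.42 ± 0.12 (0.00627). Nlrp9a (-0.12, 95% interval -0.29 to 0.04), Nlrp4e (0.06, -0.32 to 0.43) and Nlrp4g entry 1 (0.20, -1.49 to 1.89) did not pass. Values of 7 of 10 entries did not overlap between stages, against 72.7% of all entries.

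All entries tested had a median log2 fold change of -0.44 in WT, and the 10 Nlrp entries had one of 0.13. Relative to that median, Nlrp4c at -0.42 was close to the bulk of the transcriptome, Nlrp9a and Nlrp4e were above it, and Nlrp14 and Nlrp9b were below it. Rescaling the libraries by the median ratio of expressed genes moved the median of all entries to -0.21, with which Nlrp9a changed sign to 0.11 and Nlrp4c no longer passed (-0.19, limma adjusted p = 0.124). With both Nlrp4g entries summed, Nlrp4g had a log2 fold change of 0.42 ± 0.10 (limma adjusted p = 0.00202) in WT and of 0.42 ± 0.09 (0.00242) in cKO. The rise of Nlrp4b did not pass with replicate number as a block (adjusted p = 0.0681), whereas Nlrp9c, Nlrp4a, Nlrp4g entry 2, Nlrp9b and Nlrp14 passed under every alternative run. No entry fell more than 10-fold, a fall seen in 1.39% of the 28618 entries, and the lowest ratio of eggs to GV oocytes was 0.472, for Nlrp9b.

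In cKO, 8 of 10 entries passed, of which 5 rose (23.0% of all entries) and 3 fell (51.0%). Nlrp9c rose by 0.85 ± 0.08 (limma adjusted p = 1.49e-05), Nlrp4a by 0.66 ± 0.07 (3.42e-05), Nlrp4e by 0.56 ± 0.13 (0.00388), Nlrp4g entry 2 by 0.38 ± 0.09 (0.00481) and Nlrp4b by 0.28 ± 0.07 (0.00406). Nlrp9b had -0.86 ± 0.09 (2.93e-05), Nlrp14 -0.69 ± 0.11 (0.000440) and Nlrp4c -0.61 ± 0.12 (0.00104). Values of 8 of 10 entries did not overlap between stages, against 68.6% of all. These 8 calls held under every alternative run. The median over the 10 entries was 0.33, beside -0.42 over all entries tested.

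The difference between these changes was tested as the genotype by stage interaction. It passed for 0 of 10 entries (1.26% of 10615 entries were called), and 1 of 10 had an unadjusted p under 0.05 (17.7% of all). The 134 calls over all entries ranged from 41 without cKO GV replicate 3 to 651 without cKO MII replicate 2. The single entry was Nlrp4e, whose change was larger in cKO by a log2 value of 0.51 ± 0.23 (95% interval 0.01 to 1.00, limma adjusted p = 0.267). The corresponding values were 0.23 (-0.08 to 0.55) for Nlrp14, 0.22 (-0.04 to 0.48) for Nlrp9b and -0.11 (-0.32 to 0.11) for Nlrp9c. As a share of the GV mean of the same genotype, Nlrp14 stood at 45.2 to 58.3% in WT eggs and at 73.0, 65.8, 58.7 and 52.0% in cKO eggs 1 to 4, and Nlrp9b at 42.9 to 51.4% and at 55.7, 52.0, 61.5 and 51.3%. The cKO egg library with the highest share was replicate 1 for Nlrp14 and replicate 3 for Nlrp9b.

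**Figure D3:**
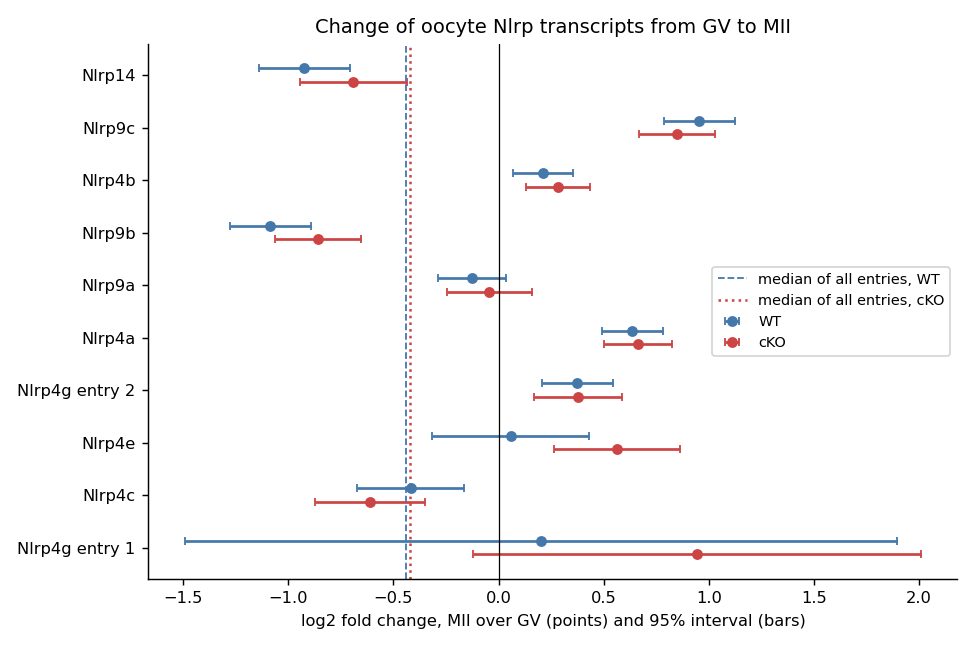
Log2 fold change of MII eggs over GV oocytes for each entry in WT (blue) and cKO (red) with 95% limma intervals, and the median of all entries tested in WT (dashed line) and in cKO (dotted line). Nlrp14 and Nlrp9b lie left of both medians, and Nlrp9c and Nlrp4a lie right of 0 in both genotypes.

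Ratios within a library do not depend on how libraries are scaled, and they were formed among the Nlrp9 transcripts after their values had been seen. The ratio of Nlrp9c to Nlrp9b was 0.994 ± 0.137 in WT GV oocytes and 4.06 ± 0.267 in WT eggs (mean ± SD, n = 4 each), and 0.927 ± 0.0243 and 3.05 ± 0.417 in cKO. The egg values ran from 3.84 to 4.44 in WT and from 2.61 to 3.55 in cKO, without overlap. The ratio of Nlrp9c to Nlrp9a was 1.37 ± 0.0489 in WT and 1.23 ± 0.0748 in cKO GV oocytes, and 2.89 ± 0.0886 and 2.29 ± 0.233 in eggs, again without overlap at either stage. Each of these 3 genotype differences had p = 0.0286 in a two-sided exact permutation test (n = 4 and 4), the smallest that 4 libraries against 4 allow, and 0.0571 when adjusted over the 6 ratios compared, so none passed. With 3 of the 6 ratios at that floor, the adjusted value could not have been lower, so the test decides little. The ratios of a stage are also not independent of each other. Nlrp9a to Nlrp9b did not separate the genotypes in GV oocytes (exact permutation p = 0.686) or in eggs (p = 0.343).

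**Figure D4:**
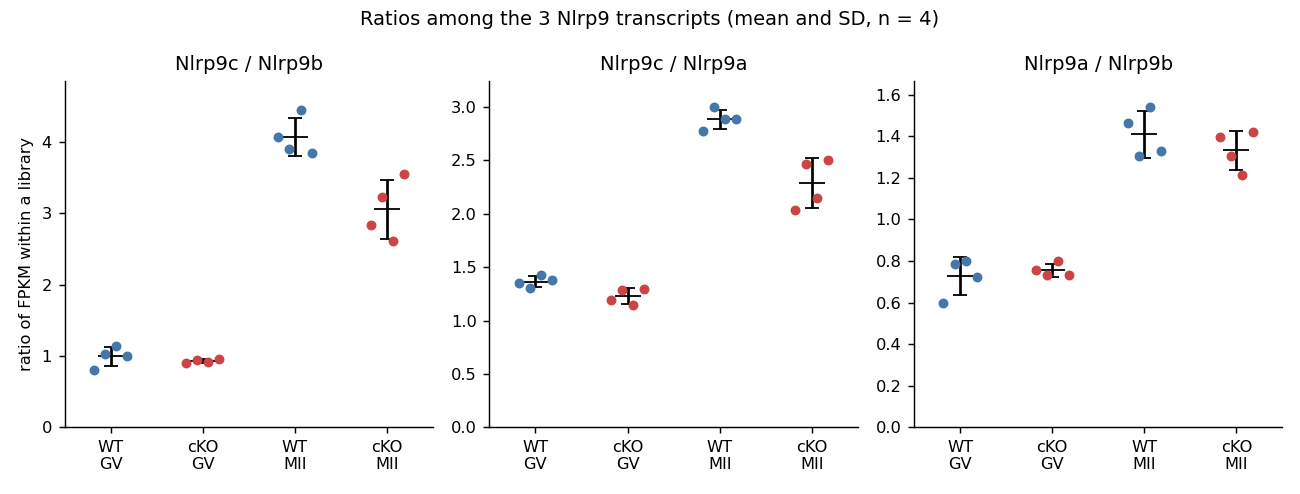
Ratio of FPKM within each library for the Nlrp9 transcripts (points; blue, WT; red, cKO), with the mean and SD of 4 libraries. Nlrp9c over Nlrp9b is near 1 in GV oocytes and 2.61 to 4.44 in eggs, and the cKO eggs lie below the WT eggs.

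The Nlrp genes of the subcortical maternal complex and their partners (Nlrp2, Nlrp4f, Nlrp5, Tle6, Ooep, Khdc3, Padi6 and Zbed3, 9 entries) were measured as the closest functional relatives. In GV oocytes 0 of 9 entries passed the genotype test (0.118% of all entries), and 2 of 9 had an unadjusted p under 0.05 (10.7% of all). These were Khdc3 (log2 fold change 0.46, limma adjusted p = 0.165) and Padi6 entry 1 (0.44, 0.302), both higher in cKO. Khdc3 was the 1 of 9 entries whose values did not overlap between genotypes there (6.67% of all). In eggs 2 of 9 passed, both higher in cKO (8.02% of all entries in either direction), and 5 of 9 had an unadjusted p under 0.05 (29.4% of all). Khdc3, which encodes the complex member FILIA, had 40.7 ± 12.3 FPKM in WT and 84.9 ± 18.7 FPKM in cKO eggs (log2 fold change 1.09 ± 0.24, limma adjusted p = 0.0338). Ooep, which encodes the member FLOPED, had 1420 ± 213 and 2063 ± 336 FPKM (0.53 ± 0.14, limma adjusted p = 0.0499). Neither call was stable, and the genotype by stage interaction passed for 0 of 9 entries (1.26% of all). Among the 8 fits that left out 1 egg library, Khdc3 passed only without cKO MII replicate 2 or 4 and Ooep only without cKO MII replicate 4, and over all 17 alternatives Khdc3 passed in 10 (limma adjusted p from 0.000841 to 0.101) and Ooep in 5 (0.00646 to 0.138). During maturation in WT, 6 of 9 entries fell (52.4% of all entries fell) and 1 rose (26.1% of all rose). The median log2 fold change was -1.30, beside -0.44 over all entries tested and 0.13 over the 10 Nlrp entries above.

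Other NLR genes and the inflammasome partners were mostly near 0. Of 19 other NLR genes, 14 names were found with 15 entries, and 12 of these had a mean under 1 FPKM over the 16 libraries. Nlrc4, an NLR of the NAIP inflammasome, had 12.5 ± 2.74 FPKM in WT GV oocytes and 31.4 ± 1.92 FPKM in WT eggs. Naip1, its partner for bacterial ligands, had 25.9 ± 2.76 and 7.22 ± 1.53 FPKM. In WT maturation 1 of the 3 tested entries rose and 2 fell, where 26.1% and 52.4% of all entries did. Nlrc4 rose (log2 fold change 1.36, limma adjusted p = 1.27e-05) and Naip1 had -1.86 (7.09e-07). Nod2, a receptor for bacterial peptidoglycan, had a mean of 1.17 FPKM over the 16 libraries, and Nod1 had 0.0791 FPKM. Of the 9 inflammasome partners, 7 were found, and only Nek7, a kinase that activates NLRP3, had a mean of 1 FPKM or more (4.25 FPKM). Casp1, Il18 and Gsdmd had means of 0.450, 0.388 and 0.0572 FPKM.

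**Figure D5:**
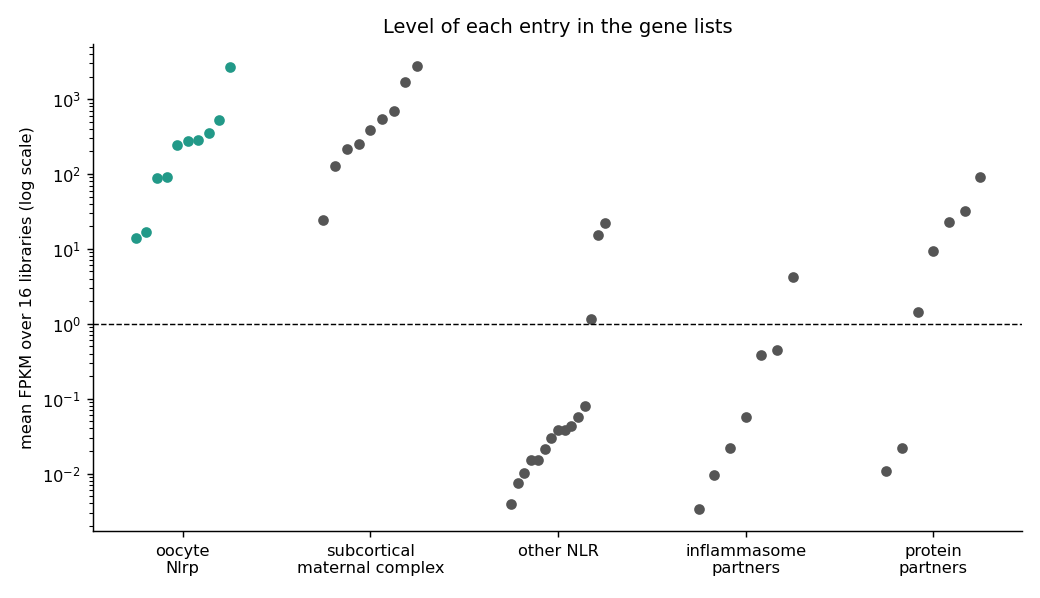
Mean FPKM over the 16 libraries of each entry in the oocyte Nlrp genes described here (green) and in 4 other gene lists (grey), on a log axis, with a dashed line at 1 FPKM. All 10 oocyte Nlrp entries lie between 13.9 and 2698 FPKM, and 12 of 15 other NLR entries and 6 of 7 inflammasome entries lie under 1.

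Of 7 known protein partners of NLRP14, NLRP9B and human NLRP4, 5 had a mean of 1 FPKM or more. Uhrf1, the NLRP14 partner, had 100.5 ± 14.5 FPKM in WT and 108.3 ± 19.2 FPKM in cKO GV oocytes, and 78.4 ± 9.27 and 72.7 ± 8.05 FPKM in eggs. Klhl13, a ubiquitin ligase adaptor, had 30.5 ± 2.79 to 34.1 ± 3.27 FPKM in the 4 groups. Becn1, the autophagy gene for Beclin-1, had a mean of 23.1 FPKM over the 16 libraries and Tbk1, a kinase of antiviral signalling, one of 9.31. None of the 5 tested partners passed the genotype test in GV oocytes or in eggs, with 0 of 5 at an unadjusted p under 0.05 at both stages (10.7% of all entries in GV oocytes and 29.4% in eggs). In WT maturation 1 of 5 rose and 1 fell (26.1% and 52.4% of all), the latter being Uhrf1 (log2 fold change -0.35, limma adjusted p = 0.0215).

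The entries whose profile was most like the mean profile of the 10 Nlrp entries were Nrp1, Anapc16, Ccdc174, Gtf2f2 and Phf8, among 4541 entries with a mean of at least 10 FPKM. Likeness was the root mean square difference on log2 FPKM, centred for each entry, over the 16 libraries, and it was 0.09 to 0.12 for these 5, compared with 0.46 for the median entry. The members themselves differed from their own mean profile by 0.17 (Nlrp9a) to 0.96 (Nlrp4g entry 1), with 0.54 for Nlrp9b and 0.44 for Nlrp9c. The mean profile averages transcripts that rose and transcripts that fell, and the 5 entries had nearly level means over the 4 groups, for example 141 to 149 FPKM for Anapc16, a subunit of the anaphase-promoting complex.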

How the data were processed

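Values were used as the FPKM that the authors deposited, fragments scaled by exon length and by the total mapped in a library. Per the paper's methods and the submitters' processing notes, oocyte pools were lysed with ERCC spike-in RNA, oligo-dT primed the Smart-seq2 cDNA, and Cufflinks 2.2.1 gave FPKM; the notes also name TopHat2 2.1.1 and build mm10. The gene annotation is not given in the sources used here. The labels give 5 oocytes per library and the methods give another pool size. The table held 0 ERCC entries, so only shares of a library were compared. Depth was estimated from the steps of the smallest values, in 5816 genes with 1 transcript.

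Following the methods, values below 1 FPKM were set to 1. Entries whose mean in the compared libraries reached 1 FPKM were fitted with limma 3.58.1 (R 4.3.3) on log2 FPKM, with an intensity trend and Benjamini-Hochberg adjustment over all entries, at an adjusted p of 0.05. Each stage and each genotype was fitted on its 8 libraries and the interaction on all 16. A 3-fold rule on group means, with the cutoff of the study, and a 10-fold rule for maturation that was added here were applied without a test. The paper does not say how it combined replicates for its 3-fold cutoff. It lists more transcripts past that cutoff at both stages than the rule called here. Fold changes understate those of entries near the floor. Nlrp9 ratios were compared by exact permutation. All 9 members are named, with the targeted gene and, from each list, genes past the threshold in a genotype comparison or otherwise the 4 with the highest mean. Members and lists were chosen with earlier results of these data known. The alternatives tried were adding 1 FPKM, a floor of 0.1 FPKM, no filter, a minimum mean of 5 FPKM, no trend, replicate number as a block, median-ratio scaling, summed entries, all 16 libraries in 1 fit, 2-fold and 5-fold rules, and each library left out. The labels do not say whether a replicate number marks shared animals or days, so it was used as a block only among the alternatives. Same-numbered libraries deviated from their group means with correlations of -0.50 to 0.29, which do not settle this. The labels call the 4 libraries of a group biological replicates, and give no batch. Sequences came from GENCODE release M21 and RefSeq (GRCm38), with Biopython 1.88 for alignment. Scripts for the tests were tested on simulated data. Other steps used matplotlib 3.10.9, scipy 1.17.1, pandas 2.3.3 and numpy 2.4.6 in Python 3.11.15.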

Additional observations from a re-analysis of the deposited data

Results flagged for a closer look

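None of the 40 sets of 4 libraries (10 Nlrp entries in 4 groups) held a value far from the other 3 by Dixon's test at its 95% critical value. Among 60 sets for the other named genes, 4 did, and chance alone flags about 1 in 20. These were Ooep in WT egg replicate 2 (1738 FPKM), Nlrc4 in cKO egg replicate 2 (34.7 FPKM), Gsdmd in cKO egg replicate 4 (0.265 FPKM, the other 3 at 0) and Becn1 in WT GV replicate 3 (17.2 FPKM).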

How the results depend on the processing

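The number of Nlrp entries called stayed at 0 of 10 for genotype in GV oocytes, for genotype in eggs and for the interaction under every alternative run, at 6 to 7 of 10 for maturation in WT and at 8 to 9 of 10 in cKO, and the 3-fold and 10-fold rules called 0 of 10 throughout. The ninth call in cKO was Nlrp4g entry 1, which passed with median-ratio scaling (log2 fold change 1.14, limma adjusted p = 0.0478) and without GV replicate 4 (1.34, 0.0165). Of 910 single values under alternatives, 872 kept direction and side of the threshold and 34 changed sign, all of the latter without a call. With replicate number as a block, 0, 0, 6, 8 and 0 entries were called for genotype in GV, genotype in eggs, maturation in WT, maturation in cKO and the interaction; Nlrp4b in WT was the call lost, and over all entries the calls in eggs fell from 620 higher and 141 lower to 101 and 7. Median-ratio scaling reversed Nlrp9b for genotype in GV (-0.012), Nlrp9a for maturation in WT (0.11) and cKO (0.16), and, for the interaction, Nlrp4a (-0.0032) and Nlrp4g entry 2 (-0.029). With 1 library left out at a time, signs changed in the following log2 ranges. For genotype in GV these were Nlrp4g entry 1 (-0.54 to 0.21), Nlrp4g entry 2 (-0.074 to 0.036) and Nlrp9b (-0.024 to 0.083), and in eggs Nlrp4c (-0.092 to 0.027), Nlrp4g entry 1 (-0.18 to 1.15) and Nlrp4g entry 2 (-0.038 to 0.052). For maturation they were Nlrp4e (-0.077 to 0.20) and Nlrp4g entry 1 (-0.34 to 0.98) in WT and Nlrp9a (-0.096 to 0.0084) in cKO, and for the interaction Nlrp4g entry 1 (-0.035 to 1.29) and Nlrp4g entry 2 (-0.041 to 0.069). The cause was not tested. The alternatives for Khdc3 and Ooep were also added after seeing the data. The Nlrp9 ratios, chosen after seeing the data too, kept their direction, at -0.50 to -0.35 for Nlrp9c over Nlrp9b in eggs and -0.18 to -0.12 in GV oocytes and -0.39 to -0.28 in eggs for Nlrp9c over Nlrp9a. Depth limits Nlrp4g entry 1 most, whose lowest library held an estimated 54 fragments if its transcript has the assumed length.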
